A study of Mus musculus with 2 samples.

Results

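Of the 8 genes for small-molecule methyltransferases compared here, Inmt alone differed strongly between implantation sites of control and Cbs null mice: it read 51.0 on the control array against 420.9 on the Cbs null array. Hnmt was next, at 49.3 and 86.1, Nnmt, Tpmt, Gamt, Pemt and As3mt differed by less than 1.5-fold in each of their probe sets, and Gnmt, at 3.4 and 3.6, was in the dimmest decile of probe sets. The genes were Inmt, Nnmt, Hnmt, Tpmt, Gamt, Pemt, Gnmt and As3mt, each taken by its gene symbol in the platform's probe annotation. They account for 8 of 12393 genes and 9 of 22626 probe sets used on the array. A probe set is a group of short probes for the same transcript, read out as a single signal in arbitrary intensity units. Tpmt had 2 probe sets and each of the other 7 genes had 1, and none of the 9 was annotated to another gene as well. The genes were grouped by function with earlier results of these arrays known, so their values below are a description.

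Samples were implantation sites, the segments of uterus around an embryo, dissected on day 8 of pregnancy from females aged 4 months on a C57Bl/6J X OLA129 background. There was 1 array of control sites, whose genotype is labelled only as control. There was also 1 array of Cbs null sites, from homozygous Cbs-deficient females. The labels do not say whether sites or females were pooled, and they do not give the genotype of the embryos. With 1 array per group there was no replicate check and no test between genotypes, and a ratio below compares these 2 arrays. Each ratio has Cbs null in the numerator and control in the denominator. A site holds uterine and embryonic cells together, so more cells of a type and more RNA per cell cannot be told apart.

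All 8 enzymes take a methyl group from S-adenosylmethionine, put it on a small molecule and release S-adenosylhomocysteine, which inhibits many methyltransferases and is hydrolysed to homocysteine. Cystathionine beta-synthase, the product of Cbs, removes homocysteine by joining it to serine. Nnmt and Inmt are close relatives that methylate nicotinamide and indoleamines such as tryptamine. Hnmt inactivates histamine, and Tpmt methylates sulfur in thiopurines. Gamt makes creatine, Pemt makes phosphatidylcholine, Gnmt turns glycine into sarcosine, and As3mt methylates arsenic. Gnmt and Pemt are best known from liver, where they and Gamt are counted among the large users of S-adenosylmethionine.

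The Cbs probe sets do not check the genotype, since the deleted part of the gene is not named in the labels. They read 30.3 and 29.9 in control and 23.8 and 22.3 in Cbs null, with log2 ratios of -0.35 and -0.42. Both were dim, at percentiles 34.1 and 33.5 of mean signal. Their ratios lay inside the range of -1.11 to 1.16 that held 95% of probe sets in that signal decile. Of the tissue markers, 8 of 9 for decidual stroma and 5 of 5 for smooth muscle had a mean signal of at least 70.5, the filter used throughout. That filter is the median of the mean signal of both arrays over all probe sets, and 7079 genes passed it. Values under 14.3, the 25th percentile, were raised to that floor before a ratio was taken. Signals of different probe sets depend on their probes, so the level of one gene was not set against that of another.

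Sequences upstream of the start site were taken from RefSeq (build GRCm38.p6, minus strand for both genes shown) for the gene with the largest ratio, Inmt, and for Gamt, whose ratio was nearest to 0 among the genes that passed the filter. Each run is the 250 bases before the annotated start, 5′ to 3′. Capitals mark TATAAA, the core of a TATA box, and GGGCGG, a GC box read on either strand.
Inmt, chr6:55174991-55175240: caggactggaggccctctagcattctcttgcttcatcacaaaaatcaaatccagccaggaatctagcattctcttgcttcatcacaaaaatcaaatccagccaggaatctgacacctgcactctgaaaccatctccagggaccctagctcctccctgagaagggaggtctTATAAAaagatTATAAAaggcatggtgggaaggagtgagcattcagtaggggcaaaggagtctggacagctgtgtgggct
Gamt, chr10:80261013-80261262: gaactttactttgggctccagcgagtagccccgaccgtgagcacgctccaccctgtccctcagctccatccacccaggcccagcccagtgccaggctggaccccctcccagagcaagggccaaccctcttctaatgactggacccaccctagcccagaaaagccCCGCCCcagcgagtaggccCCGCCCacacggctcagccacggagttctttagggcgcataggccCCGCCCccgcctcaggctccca

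The Inmt window held 2 matches to TATAAA, beginning 80 and 69 bases before the start, no GC box and no CpG dinucleotide. A stretch of 46 bases was present in it as an exact direct repeat, with the copies beginning 235 and 189 bases before the start, end to end. Among 32841 RefSeq windows of the same length, 12.4% held TATAAA on either strand, 2.10% held it more than once, and 0.174% held a direct repeat at least as long as that of Inmt. A window with no CpG was found in 7.86% of them. The Gamt window held 12 CpG and 3 GC boxes, a motif present in 32.7% of all windows.

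Of the 8 genes, 7 had windows, Pemt with 2 of them, and the upstream sequence of Nnmt was not analysed here. The CpG count ran from 0 in Inmt, 1 and 2 in Pemt, 2 in Hnmt and 4 in As3mt to 6 in Gnmt, 12 in Gamt and 19 in Tpmt, and the median over all windows was 6. Tpmt held 5 GC boxes. Inmt was the gene of the 7 with a TATAAA match, and CCAAT, present in 33.9% of all windows on either strand, was found in As3mt, Gnmt, Hnmt and 1 window of Pemt. A match describes letters in the window and is not evidence of a site in use.

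Inmt, probe set 1418697_at, had a signal of 51.0 in control and 420.9 in Cbs null. The Cbs null signal was 8.25-fold higher, a log2 ratio of 3.04, and only 2 of the 7079 genes had a higher ratio. The control signal was itself under the filter of 70.5, so Inmt passed through its Cbs null value. Both values lay above the floor. In the decile of probe sets with similar mean signal, 95% of 2263 log2 ratios lay between -0.45 and 0.54, and that of Inmt was second from the top. With a constant of 14.3 added to both signals in place of the floor, its log2 ratio was 2.74. The ratio rests on a single probe set, so no second probe set on these arrays repeats it.

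The nicotinamide methyltransferase Nnmt, the close relative of Inmt, read 136.9 and 164.3 with probe set 1432517_a_at. This is a log2 ratio of 0.26, inside the range of -0.53 to 0.60 that held 95% of probe sets in its signal decile. Its ratio ranked 980 from the top of the 7079 genes that passed.

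**Figure D1:**
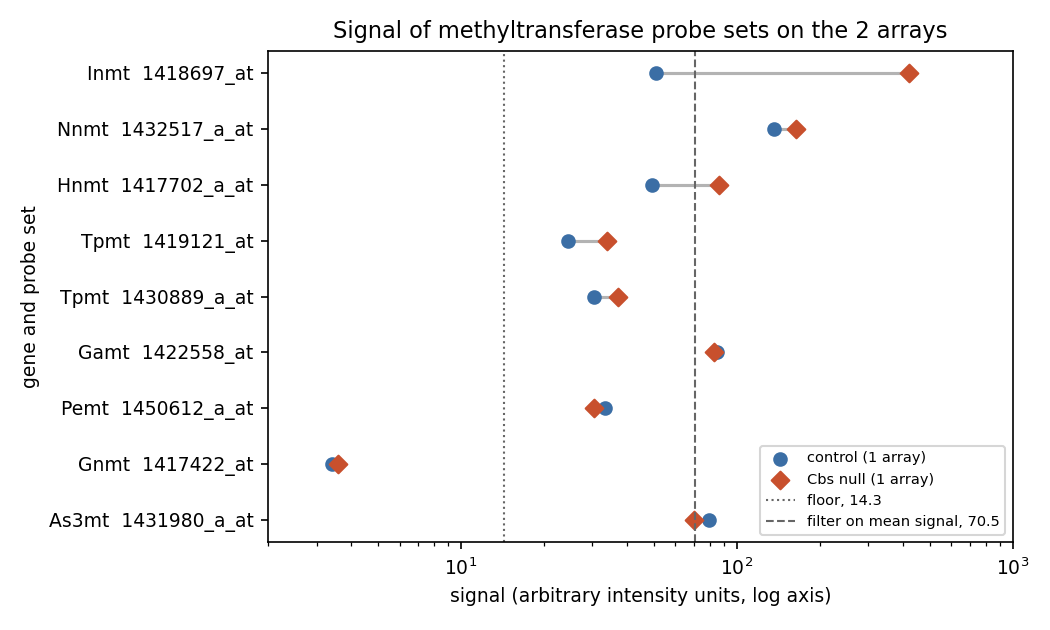
Signal of each methyltransferase probe set (rows) on the control array (circle) and the Cbs null array (diamond), on a log axis of intensity units, with the floor of 14.3 and the filter of 70.5 as vertical lines. Inmt has the widest gap, from 51.0 to 420.9, and Hnmt the next, from 49.3 to 86.1, while both Gnmt values lie under the floor.

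Hnmt, which methylates histamine in the cytosol, read 49.3 in control and 86.1 in Cbs null (probe set 1417702_a_at). The Cbs null signal was 1.75-fold higher, a log2 ratio of 0.80. Its mean signal of 67.7 lay just under the filter, whereas As3mt, at 74.6, lay just above it. At that signal ratios were wider: 95% of 2262 probe sets in the decile of Hnmt lay between -0.74 and 0.97, which includes its own value, and 4.29% were at least as high.

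Both probe sets of Tpmt were dim. Probe set 1419121_at read 24.4 in control and 33.9 in Cbs null, and 1430889_a_at read 30.3 and 37.1. Their log2 ratios were 0.47 and 0.29. Both were above 0, inside the range of -1.11 to 1.16 for probe sets of that signal, and both were 0.00 with a floor at the 40th percentile, under which all 4 values fell.

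Gamt, the last enzyme of creatine synthesis, read 84.7 in control and 82.6 in Cbs null (1422558_at), a log2 ratio of -0.04. Pemt, of the membrane lipid phosphatidylcholine, read 33.3 and 30.4 (1450612_a_at), a log2 ratio of -0.13 from signals under the filter. The arsenic methyltransferase As3mt read 79.2 and 70.0 (1431980_a_at), a log2 ratio of -0.18, and passed the filter through its control value alone. These 3 genes had slightly lower signals on the Cbs null array, each by less than the SD of 0.30 between the log2 ratios of the 2 brightest probe sets of the same gene, measured over 2284 genes.

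Gnmt, the abundant liver enzyme that uses surplus S-adenosylmethionine to methylate glycine, read 3.4 in control and 3.6 in Cbs null (1417422_at). Both values lay under the floor of 14.3, at percentile 9.49 of mean signal, so no ratio was measured. The files give no detection call, so these readings are a lack of signal over background and not a level.

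In all, 4 of the 8 genes passed the filter (Inmt, Nnmt, Gamt and As3mt). Of these 1 was at least 2-fold higher, where 0.622% of all genes that passed were, and none was at least 2-fold lower, where 0.283% were. The other 3 differed by less than 1.5-fold, as did 96.2% of genes that passed. The median log2 ratio of the 4 genes was 0.11, and that of all genes that passed was 0.02. The median of the 4 rested on which genes passed, and was -0.04 without Inmt and 0.26 over the 7 genes that passed a filter at the 25th percentile. With the filter set on the control signal alone, a setting chosen after the values were seen, Inmt was left out and no methyltransferase among the remaining 3 was 2-fold apart.

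**Figure D2:**
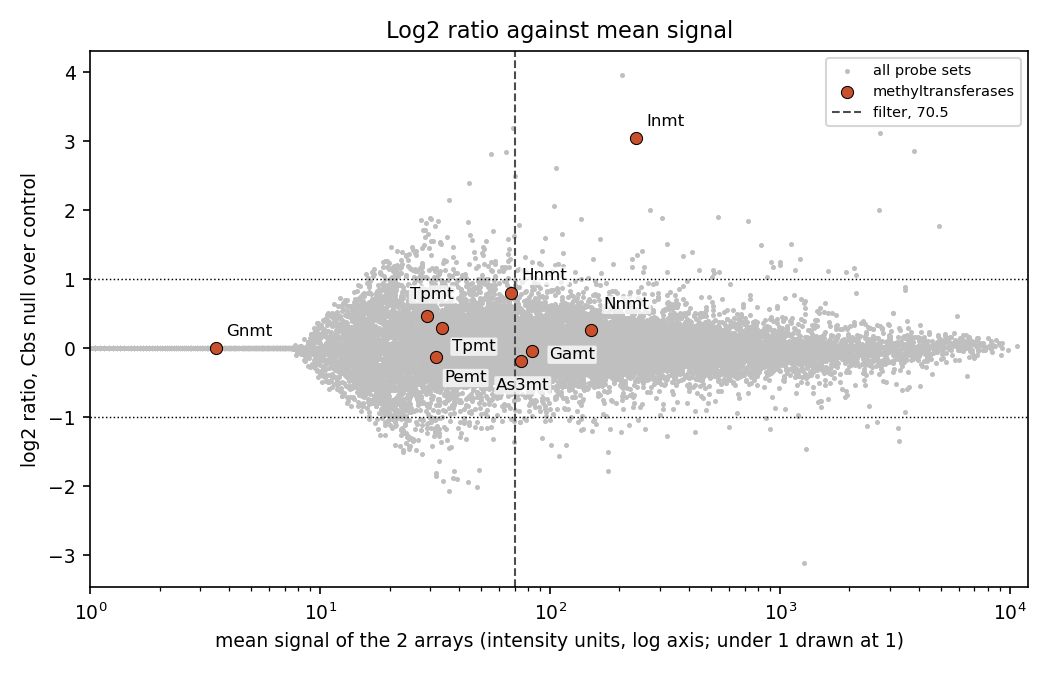
Log2 ratio of Cbs null over control against mean signal (log axis) for all 22626 probe sets (grey) and the 9 methyltransferase probe sets (red), with the 2-fold limits dotted and the filter of 70.5 dashed. Inmt lies far above the cloud at 3.04, Hnmt at 0.80 lies near its upper edge just left of the filter, and the others lie within it.

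No gene of similar signal had a ratio close to that of Inmt. Among 3858 genes that passed with a mean signal within 2-fold of its own, the nearest in log2 ratio over the 2 arrays were Afp, Slc15a2 and Wfdc18, at 3.96, 2.01 and 1.89. The smallest of the differences was 0.92, for Afp, a plasma protein of the yolk sac endoderm.

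Genes that supply the substrates of these reactions or use their products were compared in 10 lists. Of 79 genes, 62 had a probe set of their own and 40 passed the filter. Of the 40, 1 was at least 2-fold higher and none at least 2-fold lower, where 0.622% and 0.283% of all genes that passed were. At 1.5-fold, 2 (5%) were higher and none was lower, where 2.46% of all genes that passed were higher and 1.33% lower. The median log2 ratio of the 40 was 0.01. The pair past 1.5-fold was Aox3 and Mtrr.

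Aox3, an aldehyde oxidase of the kind that oxidises methylnicotinamide, the product of Nnmt, read 203.7 in control and 438.5 in Cbs null. It was 2.15-fold higher, a log2 ratio of 1.11, in a single probe set. Its relative Aox1 had a log2 ratio of 0.30. Nampt, which returns nicotinamide to NAD and so competes with Nnmt for it, read 664.3 and 477.6, a log2 ratio of -0.48 and the lowest of the 5 nicotinamide genes that passed.

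The supply of S-adenosylmethionine and the removal of S-adenosylhomocysteine were represented by 6 genes that passed, with a median of 0.10. Mtrr, which reactivates methionine synthase, read 72.5 and 129.0 and was 1.78-fold higher. Ahcy, which hydrolyses S-adenosylhomocysteine, read 580.0 and 662.0, a log2 ratio of 0.19. Adk, which removes the adenosine formed in the same step, stood at -0.08, and at 0.24 in its other probe set that passed. Mat1a, the liver form of the enzyme that makes S-adenosylmethionine, was under the floor on both arrays, at 1.3 and 0.8, as was Gnmt. Mat2a and Mtr, also on this list, had no probe set of their own and were not measured.

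Around Gamt, 4 creatine genes passed, with a median of -0.10. Ckmt1, at 67.8 and 88.4, passed through its Cbs null value alone. Gatm, which makes the guanidinoacetate that Gamt methylates, read 627.4 and 552.6, a log2 ratio of -0.18, and the brain-type creatine kinase Ckb had -0.04. Around Gnmt, 3 genes of glycine and sarcosine passed. Of these Sardh, which oxidises sarcosine, had a log2 ratio of -0.04 in its brightest probe set and 0.40 in the other, and Shmt2, which makes glycine from serine in mitochondria, had 0.23. Around Pemt, 8 of the 8 genes of phosphatidylcholine on the array passed, with a median of 0.22 and 6 above 0, where 55% of all genes that passed were above 0. Among the 6, Chka, at 66.0 and 80.8, passed through its Cbs null value alone, so its direction was partly set by the filter. The kinase Etnk1, which phosphorylates ethanolamine, was the brightest and had -0.32, and -0.81 in its other probe set that passed. Chpt1, a choline phosphotransferase picked after its values were seen, had 0.54 in its brightest probe set, and its 4 probe sets ran from -0.00 to 1.12.

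Around Hnmt, Hdc, which makes histamine, read 178.0 and 178.1, a log2 ratio of 0.00, and 0.29 in its other probe set. Aoc1, the secreted amine oxidase that also degrades histamine, read 367.8 and 332.1, a log2 ratio of -0.15. Neither came near the log2 ratio of 0.80 of Hnmt. Around Inmt, Maoa, a monoamine oxidase, was the 1 gene of the amine list that passed, with -0.29. Ddc, which makes tryptamine, read 24.6 and 20.3, under the filter. The 4 genes of purine and thiopurine use that passed were all below 0, from -0.27 to -0.14, where 44.9% of all genes that passed were below 0. All 4 differed by less than 1.5-fold, as did 96.2% of all genes that passed, with Hprt, which activates thiopurines, at -0.14. Of the arsenic list 4 passed, with a median of 0.18 and the glutathione transferase Gsto1 at 0.19, and at 0.42 in its other probe set. Among other small-molecule methyltransferases 3 passed. Mettl7a1, a thiol methyltransferase relative, had 0.49 in its brightest probe set and 0.24 in the other that passed, and Coq3 and Coq5 of ubiquinone synthesis had -0.13 and -0.21.

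**Figure D3:**
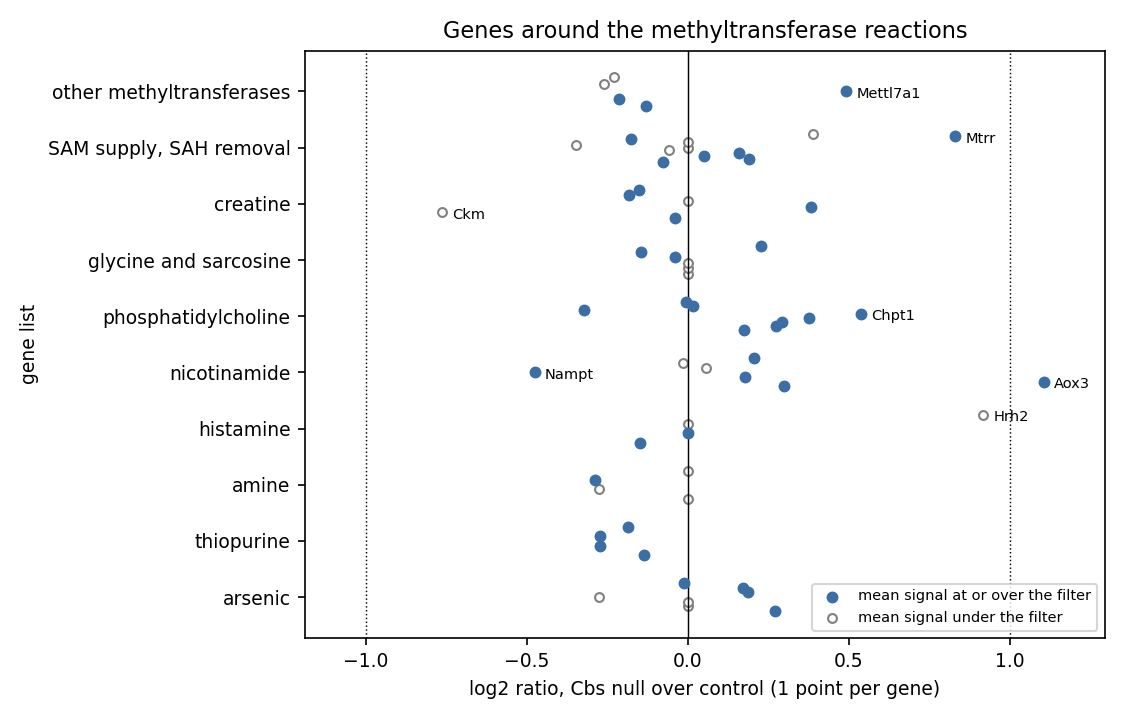
Log2 ratio of Cbs null over control for genes in 10 lists around the methyltransferase reactions, 1 point per gene, filled where mean signal reached 70.5 and open where it did not (SAM, S-adenosylmethionine; SAH, S-adenosylhomocysteine). Aox3 at 1.11 is the filled point beyond the dotted 2-fold limits, and Mtrr follows at 0.83.

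Several lists of cell type markers had sums that were, like Inmt and Hnmt, higher on the Cbs null array. Of 11 uterine epithelium markers 9 passed, of which 8 had a ratio over 0 and 2, Lcn2 and Calb1, were past 2-fold. Over all genes that passed, 55% were above 0 and 0.622% were 2-fold higher. Calb1, at 47.3 and 104.2, passed through its Cbs null value alone. The signals of the list summed to 3139.7 in control and 4673.0 in Cbs null. Muc1 read under the floor in control, at 7.4, and 50.4 in Cbs null. Of 6 yolk sac endoderm markers 3 passed, and the sum was 631.2 and 1087.1 with Apob under the floor on both arrays. Afp and Ttr, the pair past 2-fold, read 24.7 and 33.0 in control and 384.6 and 113.6 in Cbs null. They passed through their Cbs null values alone and carry most of the rise in the sum. Their count and that sum thus say nothing of the list. Rbp4, the other marker that passed, read 522.0 and 523.2, a log2 ratio of 0.00. Of 4 adipocyte markers 2 passed, both at least 1.5-fold higher in their brightest probe set, where 2.46% of all genes that passed were. Fabp4, at 1549.2 and 2711.8, had a log2 ratio of 0.81, and 0.36 in its other probe set that passed. The sum was 2165.0 and 3692.9 with Lep under the floor on both arrays. Macrophage markers summed to 1934.9 and 2340.5, with 4 of 5 above 0 and none under the floor. Mesothelium markers summed to 1083.2 and 1209.9, with 3 of 4 passed and all 3 above 0, of which Upk3b, at 69.7 and 116.9, passed through its Cbs null value alone. The part of these cell types in the Inmt and Hnmt values was not tested.

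Other lists had sums that were near-equal or lower, or members that went opposite ways. Smooth muscle markers summed to 20123.5 and 20184.5, and decidual stroma markers to 14795.5 and 14949.2. Within that near-equal sum the decidual markers went both ways. Bmp2 was 2.31-fold lower and Tdo2, at 3129.5 and 1750.3, was 1.79-fold lower, while Prl8a2, at 2542.7 and 3633.6, was 1.43-fold higher and Dcn had a log2 ratio of 0.20. Markers of uterine natural killer cells summed to 3778.1 in control and 2076.5 in Cbs null. Of the 5 that passed 4 were below 0, where 44.9% of all genes that passed were. Klrk1 passed with a log2 ratio of 0.05, and Ncr1, under the filter, had 0.26. Il2rb had -0.85, and -0.32 in its other probe set that passed. At 110.5 and 61.1, Il2rb passed through its control value alone, so its direction was partly set by the filter. Mast cells store histamine and carry its synthetic enzyme Hdc. Their 6 markers summed to 624.6 and 464.4, of which 3 passed, and Fcer1a was under the floor on both arrays. Of the 3, none was at least 1.5-fold higher and 1, Kit at a log2 ratio of -0.67, was at least 1.5-fold lower. Over all genes that passed, 2.46% were higher and 1.33% lower by that much. Of 5 hepatocyte markers 2 passed and went opposite ways, Alb at -1.30 and Cyp2e1 at 0.79, while G6pc was under the floor on both arrays. Alb, at 130.7 and 52.9, passed through its control value alone.

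**Figure D4:**
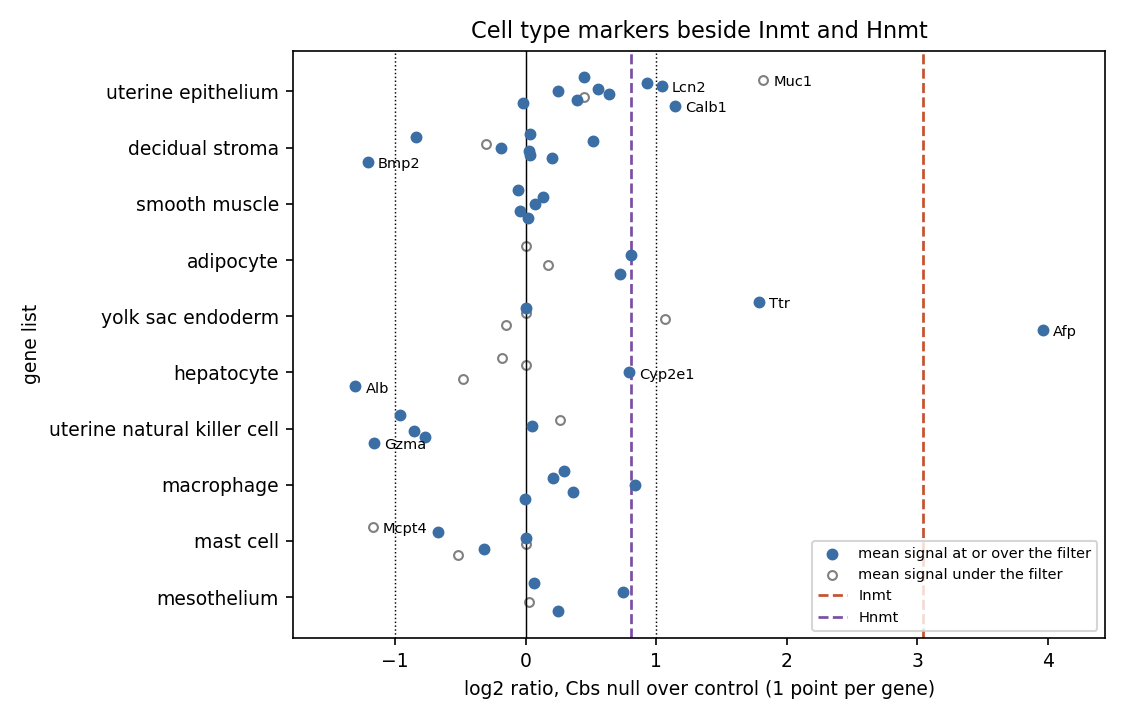
Log2 ratio of Cbs null over control for cell type markers, 1 point per gene, filled where mean signal reached 70.5, with dashed lines at the ratios of Inmt (3.04) and Hnmt (0.80). Afp at 3.96 is the marker beyond Inmt, and uterine epithelium markers lie mostly above 0 while natural killer cell markers lie mostly below.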

How the data were processed

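The deposited table holds 1 linear intensity for every probe set on each array, from biotin-labelled cRNA of 2 microg total RNA on an Affymetrix mouse array, per the labels' protocols. GCOS 1.4 produced them, per the submitters' processing notes; its algorithm, the genome build and any detection call are not stated in the labels. The 2% trimmed mean was 200.1 on both arrays, so no further scaling was applied. Of 22690 probe sets, 64 controls were set aside. A single gene was annotated for 20380 probe sets, of which 20351 matched RefSeq by identifier, several genes for 691 and none for 1555. The last 2 kinds were left out of gene results. Each gene was represented by its brightest probe set. The floor and filter are defined in the report.

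No p-values were computed. The members, lists, rules and alternatives were chosen with earlier results of these data known. Named genes were all 8 members, from each pathway list up to 4 genes that passed and were at least 1.5-fold apart or else the brightest, and the 3 genes nearest to a 2-fold member in ratio. Other genes named were picked after their values were seen. Alternatives were 3 other normalizations, of which centring on the median left every value as it was, 2 other floors, a pseudocount, 3 other filters, the median over probe sets, omission of probe sets with possible cross-matches and, added later, a filter on the control signal. Protein sequences were not used here. Scripts were tested on simulated data and ran in Python 3.11.15 with numpy 2.4.6, pandas 2.3.3 and statsmodels 0.14.6. The number of arrays limits the precision.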

Additional observations from a re-analysis of the deposited data

How the results depend on the processing

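Centring on the median changed no value, since the median over all probe sets was 0, and so tested nothing. No paired analysis was possible because each group had 1 array. An alternative was taken to leave a log2 ratio the same when it moved by no more than 0.30. That is the SD between probe sets of a gene that passed the filter. The log2 ratio of Inmt was 3.04, and 2.74 with a pseudocount in place of the floor. Before rounding this change was just over the limit, so the ratio counted as moved. A pseudocount by construction lowers ratios of dim signals. The count of members at least 2-fold higher was 1 under the other alternatives and 0 with the filter on the control signal alone, which leaves Inmt out. The median of members that passed was 0.11, and 3.04 with the filter at the 75th percentile, where Inmt alone was left, 0.26 over the 7 members left by a 25th-percentile filter and -0.04, of opposite sign, with the filter on the control signal (3 members). Among the other members, each ratio moved by less than 0.30 in all alternatives except that of Tpmt probe set 1419121_at, which went from 0.47 to 0.00 with the floor at the 40th percentile. Hnmt ran from 0.66 to 0.80 and Nnmt from 0.23 to 0.26.

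Among the 7079 genes, 44 lay 2-fold or more above control and 20 below. These counts were 149 and 79 with the filter at the 25th percentile or none, 23 and 8 at the 75th, 27 and 25 with the filter on control, and 35 and 13 with a pseudocount. Signal over background limits Gnmt, Pemt, Tpmt and Hnmt, which lay under the filter.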

Other observations

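The genes next to Inmt on its chromosome in the RefSeq table (GRCm38.p6, used for gene order) were looked up after its value was seen. Gars, which charges transfer RNA with glycine, read 553.1 in control and 555.1 in Cbs null, a log2 ratio of 0.01. Aqp1, a water channel of endothelium and other tissues, read 1027.2 and 1546.5, a log2 ratio of 0.59. Crhr2 and Ghrhr, receptors of hypothalamic hormones, were under the floor on both arrays, at 8.9 and 8.6 and at 4.5 and 5.2. Mindy4, which lies between Inmt and Aqp1, had no probe set of its own. A ratio was thus measured for Gars and Aqp1 alone, and both lay below the 3.04 of Inmt. Aqp1 was at least 1.5-fold higher, as were 2.46% of all genes that passed, while Gars was near-equal on the 2 arrays.

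Ckm, the muscle creatine kinase, and Hrh2, a histamine receptor, had the widest ratios among the pathway genes under the filter. Ckm read 57.6 in control and 33.9 in Cbs null, a log2 ratio of -0.76, and Hrh2 read 11.1, under the floor, and 27.0, a log2 ratio of 0.92 against the floor.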
